A study of Mus musculus with 23 samples.

Results

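The mean of the 8 DIO-R samples, taken from energy-restricted mice, was set against the average of the means of both freely fed groups, Lean (7 samples) and DIO (8 samples), so that each freely fed group weighed the same. All 23 samples of the series entered the fit. A second test on the same fit asked whether DIO-R lay beyond each freely fed group on its own, in the same direction. The question is which transcripts went with restricted feeding whether the comparison group had eaten chow or the obesogenic diet.

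All samples were circumvallate papillae, the big taste papilla near the root of the tongue, of male C57Bl6/j mice. Lean mice ate a standard laboratory chow with 3% fat by weight without restriction, and DIO mice ate as freely a fat-rich obesogenic diet in which saturated fatty acids were abundant. DIO-R is not spelled out in the labels and was taken to mean DIO mice held to 60% of the energy eaten freely; no group of restricted Lean mice is among the samples, so restriction is seen on the DIO background only. The epithelium was freed with elastase and dispase before the papilla was cut out, and 25 ng of total RNA per sample was labelled for a 1-colour Agilent array. The labels used here give no age, no length of the diets or of the restriction, no hour of feeding or dissection, and they do not say whether 1 animal gave 1 sample. The spread behind each p-value is thus that of these samples alone, part of which may be technical.

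Mammalian cells keep time with a loop in which Clock and Bmal1 (gene symbol Arntl) switch on their own repressors, the Per and Cry proteins, together with the Rev-erb receptors and output factors such as Dbp, and meals can shift that loop in peripheral tissues. Fatty acids entering a cell bind PPAR receptors, which switch on genes for fatty acid transport into mitochondria, beta-oxidation and the sparing of glucose. The circumvallate papilla holds many taste buds, whose cells sense nutrients and are renewed throughout life, beside keratinised epithelium and the ducts of the von Ebner glands.

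Of 28209 genes kept, 48 passed an adjusted p of 0.05 in the comparison with both freely fed groups, which is 0.17% of them. Of these, 17 were higher in DIO-R (0.0603% of all genes) and 31 lower (0.11%), against 49.1% of all genes with a difference above 0. The DIO-R mean lay beyond both freely fed means for 48 of the 48. The difference from the average of both freely fed means had the same sign on each of the 3 array slides for 48 of the 48. In 43 of them every DIO-R sample lay beyond both freely fed means. The 48 were selected by their difference from both groups on the same arrays. Such selection favours these counts, which are no separate support for the calls. Over all genes the DIO-R mean was above both others in 32.1%, below both in 35.9% and between them in 32%. DIO was the nearer of the freely fed groups to DIO-R for 29 of the 48 genes and Lean for 19. An unadjusted p under 0.05 was found for 2712 genes, 9.61% of all. The count of genes passing was 22 with the erythrocyte marker level as covariate, 23 with the skeletal muscle and adipocyte levels, and 77 with array weights. In all 15 alternatives and in each fit that leaves out 1 sample, 12 genes kept their calls: Angptl4, Dbp, Acot1, Acot5, Cpt1a, Tef, Scd2, Klf11, Nr1d2, Tmem82, Pdk4 and Ciart.

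The stricter test, which takes for each gene the larger of the p-values against Lean and against DIO, passed 13 genes, 0.0461% of those tested, where 679 (2.41%) had an unadjusted p under 0.05. The 4 higher genes were Dbp, Tef, Scd2 and Hivep2 (0.0142% of all genes), and the 9 lower genes were Angptl4, Acot1, Acot5, Cpt1a, Klf11, Pdk4, Tmem82, Aldh9a1 and Eci3 (0.0319%). With normexp background correction, and in the authors' value table, 7 higher and 9 lower genes passed. The count fell to 3 with the erythrocyte covariate (Angptl4, Acot1 and Dbp) and to 8 with no filter on dim probes. With the muscle and adipocyte covariates it fell to 8, of which 7 were among the 13. All 8 DIO-R samples lay above all 15 freely fed samples for 2 genes, Scd2 and Ciart (0.00709% of all genes). They lay below all 15 for 5 genes, Angptl4, Acot1, Acot5, Cpt1a and Impa2 (0.0177%). Angptl4, Acot1, Dbp, Acot5 and Cpt1a kept the stricter call whichever sample was left out, although Acot5 and Cpt1a lost it with the erythrocyte covariate and Acot5 with the mean of probes, and Scd2 lost it without Lean 10 (adjusted p = 0.0511). The other 7 lost it in 12 to 20 of the 23 fits that leave out 1 sample, with adjusted p-values up to 0.156. The number of genes passing the stricter test was 5 without Lean 10; 6 without DIO 5, Lean 4, DIO-R 5, Lean 5 or DIO-R 8; 7 without DIO-R 6, Lean 9, DIO 6, DIO-R 4, DIO 3 or DIO-R 10; and 8 without Lean 7, DIO 7, DIO-R 2 or DIO 8. The count of 48 fell to 31 without DIO-R 10 and otherwise stayed within 1.5 times its value, reaching 65 without Lean 3. Samples DIO 1 and DIO 6, which stood apart by low levels of taste cell genes, left 38 and 7 genes in the respective tests when both were omitted.

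**Figure D1:**
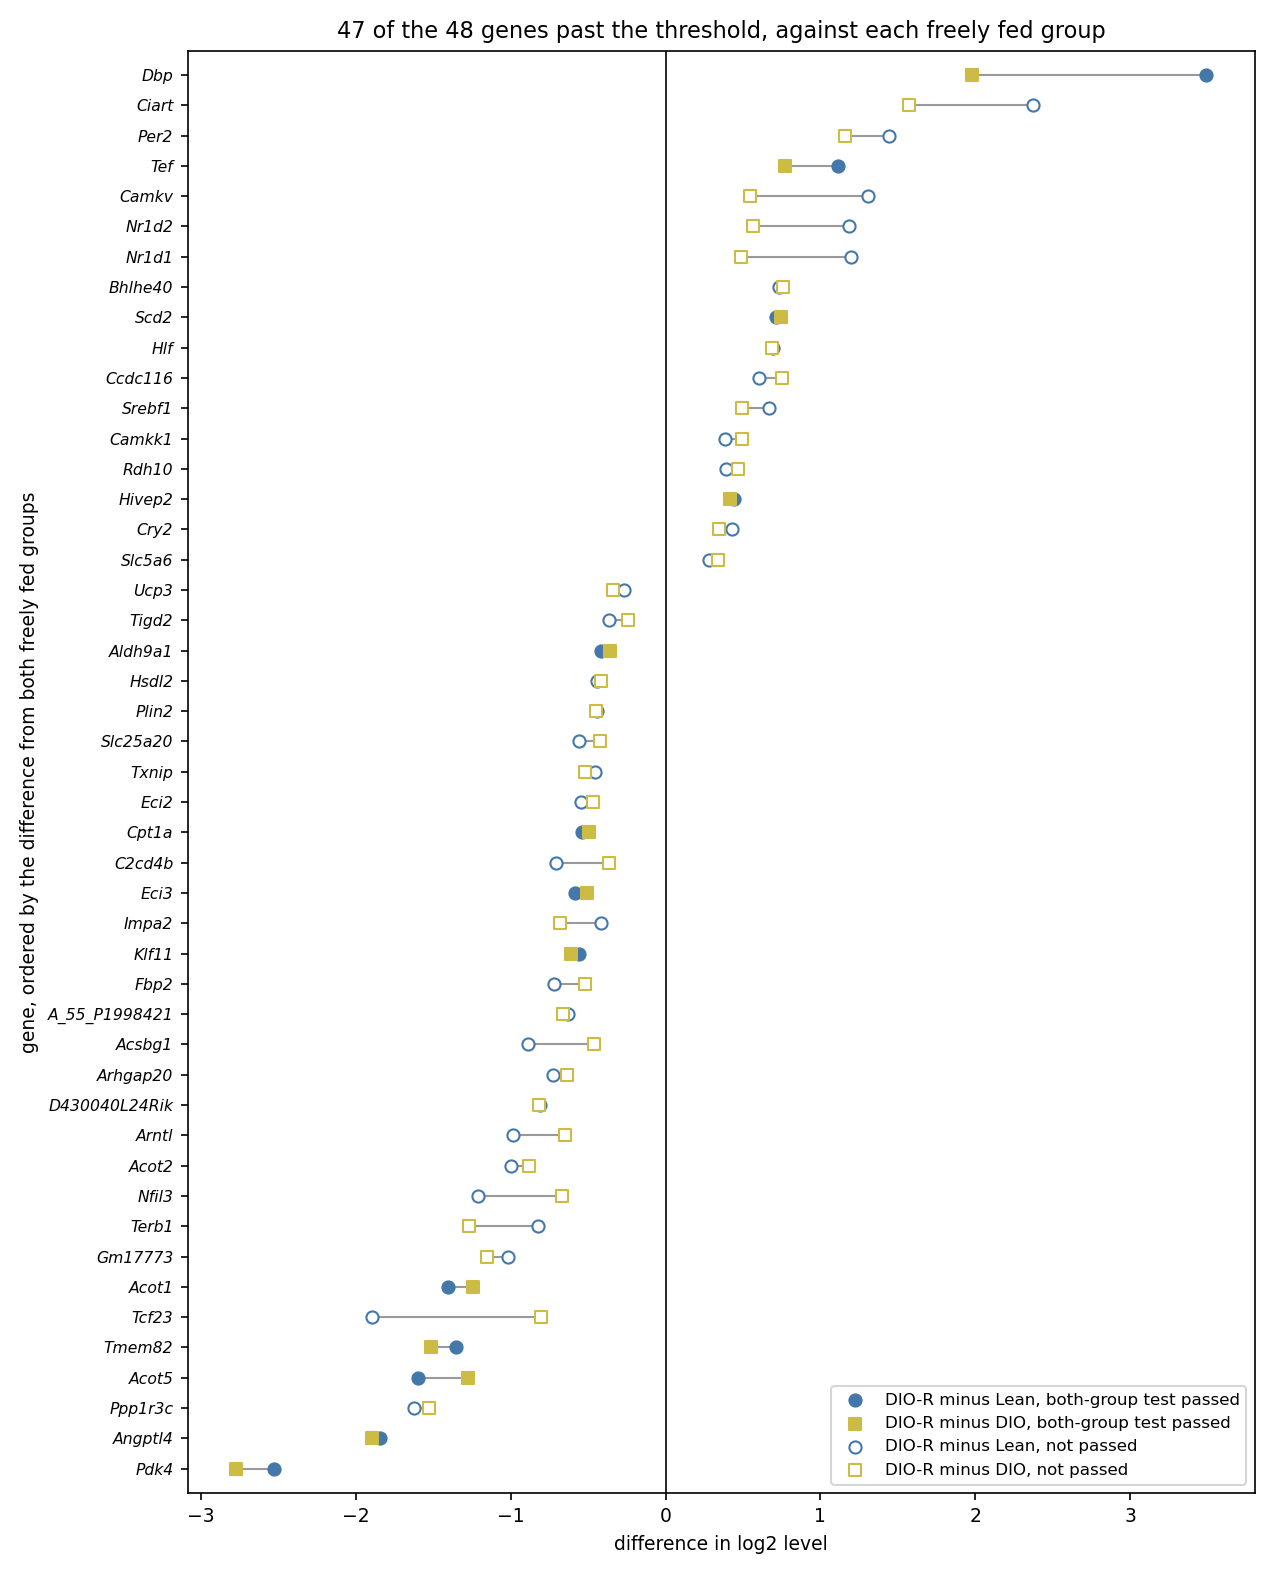
Differences in log2 level of DIO-R from Lean (circles) and from DIO (squares) for 47 of the 48 genes past the threshold, ordered by the difference from both groups; filled symbols mark the 13 genes that passed the stricter test. Both symbols of every gene lie on the same side of 0. Dbp, at 3.49 from Lean and 1.98 from DIO, and Tcf23, at -1.90 and -0.80, show wide gaps between the symbols, whereas those of Angptl4, Scd2 and Hlf nearly coincide.

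PPAR targets and genes of fatty acid oxidation, taken as a single list, gave 12 of the 31 lower genes. The list of PPAR targets and oxidation enzymes had 47 of its 48 genes kept, and 12 of the 47 passed, each of them lower in DIO-R. Of all genes 0.11% passed as lower. The list was chosen with earlier results of these data known. The median difference of the list was -0.28 on the log2 scale against -0.003 for all genes, 39 of the 47 lay below 0, and the DIO-R mean was below both freely fed means in 37. Over all genes 49.1% lay above 0, and the DIO-R mean was below both in 35.9%. The median was -0.32 against DIO and -0.27 against Lean, which share the DIO-R samples. With the skeletal muscle and adipocyte marker levels as covariates the median shrank to -0.08 and 7 members passed. The adipocyte list itself holds Pparg and lipid genes such as Fabp4, Plin1 and Lpl. Whether the smaller median reflects tissue content was not tested. With the erythrocyte level as covariate 6 members passed.

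Angptl4, a secreted inhibitor of lipoprotein lipase, had the smallest p of all genes (probe on chromosome 17, 33911880 to 33911939, build mm9). Its log2 level, counted from the 75th percentile of the array, ran from 3.76 to 5.07 in Lean (median 4.42), from 4.03 to 4.80 in DIO (median 4.54) and from 1.90 to 3.21 in DIO-R (median 2.57). The restricted samples did not overlap either freely fed group, and the level was 3.66-fold lower (log2 difference -1.87 ± 0.15 SE, adjusted p = 3.95e-07). Lean and DIO differed by 0.05 (unadjusted p = 0.772).

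Pdk4, the kinase that shuts down pyruvate dehydrogenase and so spares glucose, showed the largest fall of the 48 genes (chromosome 6, 5433441 to 5433500). Levels ran from 4.09 to 6.65 in Lean (median 5.31), 4.61 to 6.28 in DIO (median 5.70) and 1.09 to 4.28 in DIO-R (median 2.83). In 7 of the 8 DIO-R samples Pdk4 was below every freely fed sample, and the highest DIO-R sample lay inside the Lean range. The difference was -2.65 ± 0.38 SE, or 6.27-fold (adjusted p = 0.00146), with -2.77 against DIO and -2.53 against Lean. The phosphatase that opposes it, Pdp2, did not pass (0.27 ± 0.06 SE, adjusted p = 0.102).

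Of the acyl-CoA thioesterases, which release free fatty acids from coenzyme A, Acot1, Acot2 and Acot5 fell. Acot1, the cytosolic enzyme (chromosome 12, 85358561 to 85358620), ran from 4.59 to 5.27 in Lean (median 4.85), 4.13 to 5.10 in DIO (median 4.77) and 3.20 to 3.88 in DIO-R (median 3.43). No DIO-R sample reached a freely fed one, and the level was 2.50-fold lower (-1.32 ± 0.12 SE, adjusted p = 1.01e-06). Acot5, a peroxisomal enzyme (chromosome 12, 85416634 to 85416693), ran from -0.998 to -0.06 in Lean, -1.58 to -0.17 in DIO and -2.64 to -1.94 in DIO-R. It too was lower in every restricted than in every freely fed sample (-1.44 ± 0.15 SE, adjusted p = 1.19e-05). A dimmer second Acot5 probe differed by -0.03, and the mean of both probes by -0.73 (adjusted p = 0.0422). Acot2, the mitochondrial enzyme, differed by -0.94 ± 0.16 SE (adjusted p = 0.0113), with 6 of 8 DIO-R samples below all others; the call was lost with the erythrocyte covariate (adjusted p = 0.0843). The neighbours Acot3 and Acot4 did not pass, at 0.04 and -0.47. The Acot genes are near-identical copies that can share probe signal, so their separate values are uncertain to that extent.

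Genes for the entry of fatty acids into mitochondria also fell. Cpt1a, the carnitine palmitoyltransferase of the outer mitochondrial membrane (chromosome 19, 3385374 to 3385433), ran from 2.95 to 3.39 in Lean (median 3.13), 2.88 to 3.28 in DIO (median 3.09) and 2.45 to 2.81 in DIO-R (median 2.57). The groups did not overlap although the change was small, 1.43-fold (-0.52 ± 0.06 SE, adjusted p = 0.000241), and a second Cpt1a probe gave -0.55. Slc25a20, the carrier that takes acylcarnitine across the inner membrane, differed by -0.49 ± 0.09 SE (adjusted p = 0.0183) with overlapping ranges. Its call was lost without DIO-R 4, 5, 8 or 10 (adjusted p from 0.0581 to 0.0693) and with the erythrocyte or the muscle and adipocyte covariates (0.152 and 0.144). The muscle isoform Cpt1b did not pass (-0.67 ± 0.33 SE).

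Eci2 and Eci3, isomerases that let unsaturated fatty acids enter beta-oxidation, were 1.42-fold and 1.46-fold lower (adjusted p = 0.0113 and 0.00255). Eci3 ran from 2.34 to 2.72 in Lean, 2.33 to 2.61 in DIO and 1.61 to 2.34 in DIO-R, so that the groups met at a single DIO-R sample. The Eci2 call was lost with the erythrocyte covariate (0.0695) and with the muscle and adipocyte covariates (0.0887). The chain of mitochondrial oxidation enzymes beyond them mostly lay lower without passing: Hadha differed by -0.28, Hadhb by -0.35, Acads by -0.30 and Acadm by -0.11.

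Plin2, a coat protein of lipid droplets, was 1.36-fold lower (-0.44 ± 0.08 SE, adjusted p = 0.0118), and its differences from DIO and Lean were -0.45 and -0.44. A probe with no gene name, A_55_P1998421, lies on the same chromosome (4, 86272619 to 86272678, beside the Plin2 probe at 86302847 to 86302906) and differed by -0.65 ± 0.12 SE (adjusted p = 0.0159). Both calls were lost with the erythrocyte covariate (0.0695 for each) and with the muscle and adipocyte covariates (0.309 and 0.357, the latter with a difference of -0.42). That of the unnamed probe was also lost without DIO-R 6 or DIO-R 10 (0.0557 and 0.0515), with normexp background correction (-0.36, 0.121) and in the authors' value table (-0.43, 0.0603).

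Ucp3, a mitochondrial carrier of the uncoupling family, passed narrowly. It differed by -0.30 ± 0.06 SE at its brighter probe (adjusted p = 0.0446) and by -2.00 at its dimmer probe, so that the mean of probes gave -1.15 (adjusted p = 0.00240). Ucp3 kept its call in 4 of the 23 fits that leave out 1 sample, with adjusted p-values up to 0.139, and lost it with the slide block (0.0911), with no filter on dim probes (0.0738), and with the erythrocyte (0.188), the muscle and adipocyte (0.0605) and the keratinocyte and fibroblast covariates (0.0566).

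The genes of the PPAR receptors themselves did not pass, and whether these receptors acted on the lower genes was not tested. Of 11 PPAR receptors, partners and coactivators, 0 passed (3 had an unadjusted p under 0.05) and the median difference was -0.01. Ppargc1a, the PGC-1alpha coactivator, was the lowest at -0.88 ± 0.30 SE (adjusted p = 0.393), Ppara differed by -0.22 and Pparg by 0.19. Of 8 genes of ketone body use, 0 passed (3 had an unadjusted p under 0.05), and Bdh1, which interconverts the ketone bodies, was higher against DIO alone (0.58, adjusted p = 0.0389) but not in the comparison with both groups (0.43, adjusted p = 0.0912).

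**Figure D2:**
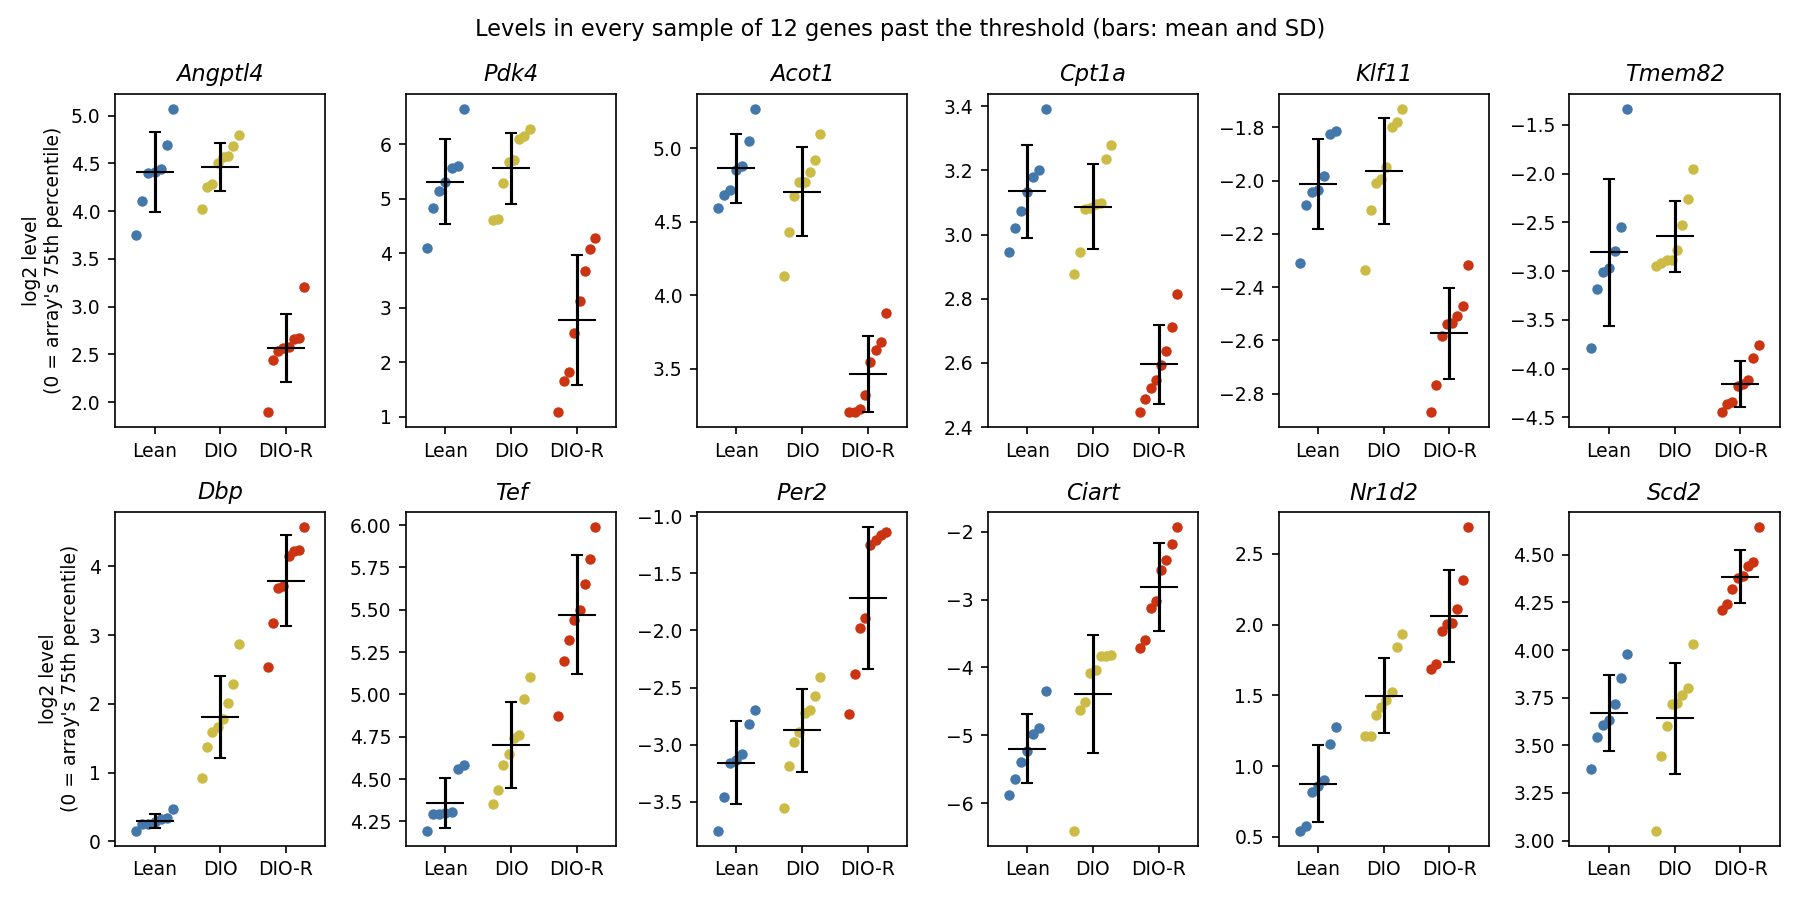
Log2 level of 12 genes in every sample of Lean, DIO and DIO-R, with the mean and SD of each group. The upper row shows genes that were lower in DIO-R and whose freely fed groups lay at like levels, such as Angptl4 at medians of 4.42 and 4.54; in the lower row Dbp, Nr1d2 and Ciart stood higher in DIO than in Lean and higher again in DIO-R.

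Klf11, Aldh9a1 and Tmem82, which are not on the PPAR list, passed the stricter test as lower genes. Klf11, a Kruppel-like transcription factor (chromosome 12, 25347324 to 25347383), ran from -2.31 to -1.81 in Lean, -2.33 to -1.73 in DIO and -2.87 to -2.32 in DIO-R. In 7 of 8 DIO-R samples it was below every freely fed sample (-0.58 ± 0.08 SE, adjusted p = 0.00124), and with normexp background correction the difference was -0.36. Aldh9a1, an aldehyde dehydrogenase with a role in carnitine synthesis, was 1.31-fold lower (-0.39 ± 0.06 SE, adjusted p = 0.00202), with 7 of 8 samples below all others. The muscle and adipocyte covariates ended its call in the comparison with both groups (0.0791). Tmem82, a membrane protein, was among the dimmer probes and differed by -1.43 ± 0.21 SE (adjusted p = 0.00146). The difference was -0.68 with normexp background correction and -0.86 in the authors' value table. The stricter call held in 10 of 15 alternatives for Klf11, in 8 for Aldh9a1 and in 7 for Tmem82. Quantile normalization and the authors' value table ended it for Klf11 and Tmem82, and normexp background correction for Tmem82. The slide block and no filter on dim probes ended it for Aldh9a1.

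Impa2, an inositol monophosphatase (chromosome 18, 67478382 to 67478441), ran from 1.85 to 2.25 in Lean (median 1.94), 1.92 to 2.48 in DIO (median 2.27) and 1.33 to 1.78 in DIO-R (median 1.67). Every DIO-R sample was below every freely fed sample. The difference from both groups was -0.55 ± 0.08 SE (adjusted p = 0.00132), but against Lean alone it did not pass (-0.42, adjusted p = 0.0886), while it did against DIO (-0.68, adjusted p = 0.000711). The muscle and adipocyte covariates ended the call of the comparison (0.0531).

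Ppp1r3c and Fbp2, which act on glycogen and on glucose formation, were among the lower genes. Ppp1r3c, which directs protein phosphatase 1 to glycogen, ran from 0.17 to 2.42 in Lean, 0.73 to 2.12 in DIO and -1.76 to 0.70 in DIO-R, with overlap. It was 2.98-fold lower (-1.57 ± 0.29 SE, adjusted p = 0.0159). The call was lost without DIO-R 4, 6 or 10 (adjusted p from 0.0512 to 0.0557), without DIO 1 and DIO 6 (0.0515) and with the erythrocyte covariate (0.117). Fbp2, the muscle form of fructose bisphosphatase, was 1.54-fold lower (adjusted p = 0.0124), and the call ended with the erythrocyte (0.0977) and the muscle and adipocyte covariates (0.307).

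Txnip, a thioredoxin-binding protein that restrains glucose uptake, was 1.40-fold lower (-0.49 ± 0.09 SE, adjusted p = 0.0136) and the single member of the insulin and FOXO list of 19 to pass. Its call ended under quantile normalization (0.0631), in the authors' value table (0.0527), and with the erythrocyte (0.103) and the muscle and adipocyte covariates (0.0583). Acsbg1, an acyl-CoA synthetase, differed by -0.67 ± 0.12 SE (adjusted p = 0.0124), mostly against Lean (-0.89, against -0.46 from DIO). The call ended with the freely fed samples as 1 group (0.0575), the erythrocyte covariate (0.0678) and the muscle and adipocyte covariates (0.0555). Of 23 genes of glucose uptake and glycolysis, 0 passed (5 had an unadjusted p under 0.05; median 0.01).

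Markers of other tissues in the dissected piece also moved, and their part in these results was not tested beyond the covariate fits. Of 30 skeletal muscle markers 28 lay lower in DIO-R and 0 passed (8 had an unadjusted p under 0.05), with a median of -0.53. The summed level of the list ran from 397 to 2308 in DIO-R, 789 to 3283 in Lean and 1129 to 2773 in DIO, so the groups overlapped widely. By slide its median was -0.47, -1.32 and 0.44. On the same slides the median of the PPAR list was -0.23, -0.44 and -0.07, and that of the adipocyte markers -0.50, -0.74 and 0.08, so that all 3 lists were lowest on the second slide and highest on the third. The 16 adipocyte markers had a median of -0.49 with 13 lower and 0 past the threshold (10 had an unadjusted p under 0.05); summed levels were 20.7 to 67.7 in DIO-R, 37.6 to 124 in Lean and 38.9 to 81.9 in DIO. The defining adipocyte genes were present: Adipoq differed by -1.63 ± 0.76 SE and Plin1 by -0.67 ± 0.24 SE, neither past the threshold. In a bulk sample fewer cells of a type and less RNA per cell cannot be told apart.

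The von Ebner gland list, the saliva-forming glands below the papilla, had 14 of its 15 kept members lower and a median of -0.90, with 0 past the threshold (3 had an unadjusted p under 0.05). Its summed level was 605 to 1724 in DIO-R, 996 to 2273 in Lean and 569 to 2452 in DIO. By slide the median of this list was -0.50, -1.19 and 0.04, and with the muscle and adipocyte covariates it was 0.15. The 10 erythrocyte markers had a median of -0.95 against DIO and 0.08 against Lean; summed levels were 107 to 334 in DIO-R, 73.6 to 278 in Lean and 174 to 594 in DIO. The 17 endothelial and smooth muscle genes had a median of -0.19 with 16 lower. Keratinocyte markers leaned the other way (median 0.16, 33 of 37 higher), with 0.44 against DIO and -0.11 against Lean. Of the erythrocyte, endothelial and keratinocyte lists too 0 members passed, and 0, 0 and 2 had an unadjusted p under 0.05.

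**Figure D3:**
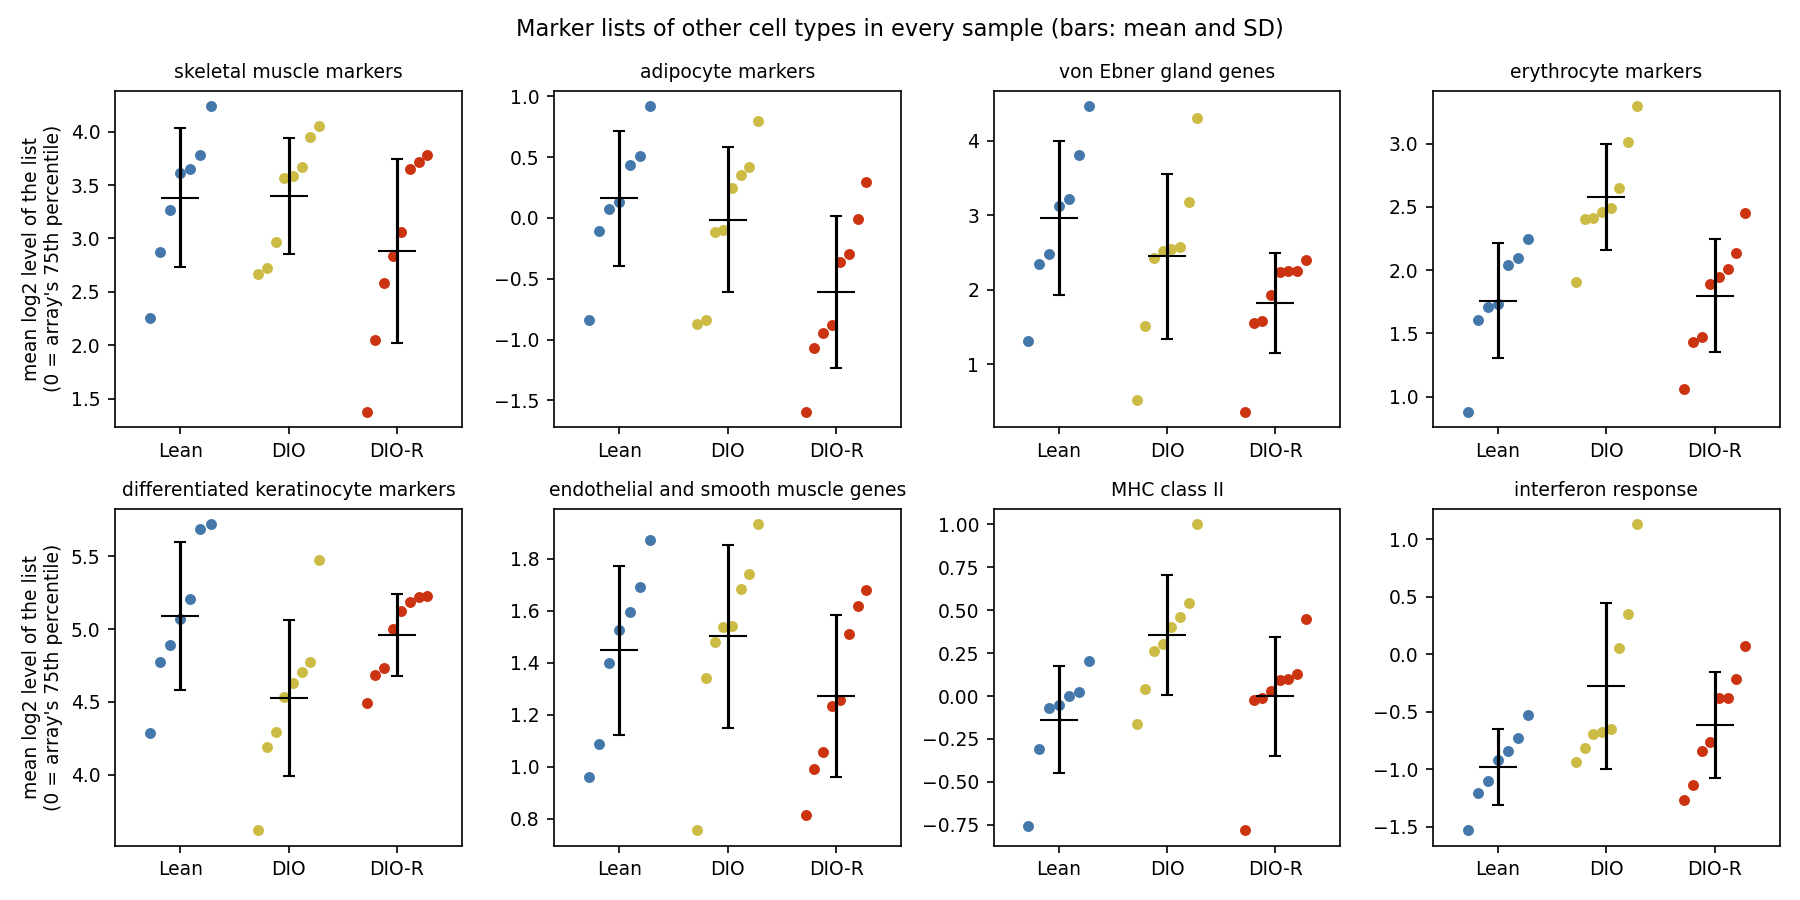
Mean log2 level of 8 marker lists in every sample, with the mean and SD of each group. The groups overlap in each panel; the lowest skeletal muscle and adipocyte values, 1.38 and -1.59, are DIO-R samples, and the erythrocyte level is highest in DIO, at a median of 2.48 against 1.74 in Lean and 1.92 in DIO-R.

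Clock genes gave 9 of the 17 higher genes. All 14 genes of the arm that contains the Per genes, Dbp and the Rev-erb receptors lay above both freely fed means, with a median difference of 0.79, and 9 of them passed. Over all genes 32.1% lay above both means and 0.0603% passed as higher. The 6 genes of the opposite arm around Bmal1 all lay below 0 in the comparison, with a median of -0.29, and Nfil3 and Arntl passed. The DIO-R mean was below both freely fed means for 3 of the 6 and between them for the other 3, and the median was -0.11 against DIO and -0.50 against Lean. With the erythrocyte covariate, or with the muscle and adipocyte covariates, 1 of the 6 passed. The number of calls in the Per-Dbp arm was 7 without DIO-R 10, 7 with the erythrocyte covariate and 6 with the muscle and adipocyte covariates. Both clock lists were chosen with earlier results of these data known.

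Dbp, an activator that carries the clock's signal to target genes through the D-box, showed the largest rise of all 48 genes (chromosome 7, 52965461 to 52965520). It ran from 0.16 to 0.47 in Lean (median 0.28), 0.92 to 2.86 in DIO (median 1.72) and 2.54 to 4.57 in DIO-R (median 3.93). Lean overlapped neither other group, and 7 of 8 DIO-R samples were above every DIO sample. The rise over both groups was 6.65-fold (2.73 ± 0.22 SE, adjusted p = 3.95e-07), with 3.49 over Lean and 1.98 over DIO, and a second probe gave 2.80. DIO itself was above Lean by 1.51 (unadjusted p = 8.95e-06).

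The relatives of Dbp that bind the same D-box, Tef and Hlf, also rose. Tef (chromosome 15, 81657221 to 81657280) ran from 4.20 to 4.58 in Lean (median 4.30), 4.35 to 5.10 in DIO (median 4.70) and 4.87 to 5.99 in DIO-R (median 5.47). All but the lowest DIO-R sample exceeded every freely fed sample (1.92-fold, 0.94 ± 0.12 SE, adjusted p = 0.000241). Hlf was 1.61-fold higher (0.69 ± 0.13 SE, adjusted p = 0.0150), by 0.69 over each freely fed group. Its call was lost without DIO-R 8 or DIO-R 10 (0.0507 and 0.0515), and with the erythrocyte (0.117) and the muscle and adipocyte covariates (0.297). Nfil3, the repressor that competes for the D-box, was lower: 0.52 to 1.52 in DIO-R against 1.27 to 2.71 in DIO and 1.77 to 2.62 in Lean (-0.94 ± 0.16 SE, adjusted p = 0.00875). No DIO-R sample reached a Lean one, and the muscle and adipocyte covariates ended the call (0.131).

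Repressors of Clock and Bmal1 rose in part. Per2, a core repressor (chromosome 1, 93313046 to 93313105), ran from -3.75 to -2.69 in Lean (median -3.13), -3.56 to -2.41 in DIO (median -2.81) and -2.74 to -1.13 in DIO-R (median -1.57). Its rise was 2.46-fold (1.30 ± 0.20 SE, adjusted p = 0.00266), with 7 of 8 DIO-R samples above all others; with normexp background correction the difference was 0.80. Per1 and Per3 did not pass, at 0.15 ± 0.16 SE (adjusted p = 0.748) and 0.92 ± 0.23 SE (adjusted p = 0.164), and the difference between the Per genes was not tested. Cry2 was 1.31-fold higher (adjusted p = 0.0150), whereas Cry1 differed by -0.09 (adjusted p = 0.771). The Cry2 call was lost without DIO-R 5 or DIO-R 10 (0.0529 and 0.0515), with the mean of probes (0.0922), and with the erythrocyte (0.0630) and the muscle and adipocyte covariates (0.216).

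Ciart, which binds and represses the Clock and Bmal1 pair (chromosome 3, 95682433 to 95682492), was higher in each DIO-R sample than in any freely fed sample. Levels were -5.88 to -4.35 in Lean, -6.40 to -3.82 in DIO and -3.71 to -1.93 in DIO-R, and the probe was well above background on 3 of 7 Lean, 7 of 8 DIO and 8 of 8 DIO-R arrays. The rise of 3.93-fold (1.97 ± 0.29 SE, adjusted p = 0.00202) rests on dim values in the fed groups. It was 0.70 on the log2 scale with normexp background correction and 1.05 in the authors' value table, and passed in both. Bhlhe40, another repressor, was 1.67-fold higher (0.74 ± 0.12 SE, adjusted p = 0.00704), with 0.73 over Lean and 0.76 over DIO, and lost its call with the muscle and adipocyte covariates (0.107). Its partner Bhlhe41 did not pass (0.12 ± 0.18 SE). A dimmer second Bhlhe41 probe, well above background on 20 arrays, differed by 0.92.

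The Rev-erb receptors, which silence Bmal1, followed the pattern of Dbp. Nr1d2 (chromosome 14, 19036568 to 19036627) ran from 0.55 to 1.27 in Lean (median 0.86), 1.22 to 1.93 in DIO (median 1.44) and 1.69 to 2.69 in DIO-R (median 2.01). DIO-R did not overlap Lean, and overlapped DIO in 2 samples. The rise was 1.84-fold (0.88 ± 0.12 SE, adjusted p = 0.00132), of which 1.19 over Lean passed and 0.57 over DIO did not (adjusted p = 0.221). Nr1d1 was 1.80-fold higher (0.85 ± 0.14 SE, adjusted p = 0.00887), with 1.20 over Lean and 0.49 over DIO; its call ended with the freely fed samples as 1 group (0.109) and with the muscle and adipocyte covariates (0.0887). Arntl itself ran from -0.23 to 1.14 in DIO-R against 0.92 to 1.55 in DIO and 1.25 to 1.68 in Lean. It was below Lean in all 8 DIO-R samples and 1.76-fold lower than both groups (-0.82 ± 0.14 SE, adjusted p = 0.00887), a call that ended with the erythrocyte covariate (0.0695). Its partner Clock did not pass (-0.04 ± 0.08 SE, adjusted p = 0.874).

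Promoter letters are shown for Ciart and Tef because they are the higher genes that carry the E-box CACGTG, the letters to which Clock and Bmal1 bind; 4 lower genes, Fbp2, Klf11, Plin2 and Ppp1r3c, carry it too. The windows are from RefSeq (assembly GRCm38.p6), read 5′ to 3′ on the gene's strand, with the E-box in capitals.
Ciart, chr3:95882247-95882364, minus strand: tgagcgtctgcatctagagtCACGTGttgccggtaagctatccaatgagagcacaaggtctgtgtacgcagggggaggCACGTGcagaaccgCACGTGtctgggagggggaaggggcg
Tef, chr15:81802526-81802571, plus strand: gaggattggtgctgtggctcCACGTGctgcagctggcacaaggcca
Tef, chr15:81811256-81811301, plus strand: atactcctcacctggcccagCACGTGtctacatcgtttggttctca
The Ciart matches begin at -116, -58 and -44 from its start, and those of Tef at -127 and -138 from 2 separate starts. In windows from 250 bases before to 50 bases after a start, exact matches on both strands were present in 8.09% of 27025 genes, in 6 of the 36 called genes with a promoter in the table (16.7%; 15.4% of the higher and 17.4% of the lower genes) and in 4 of 11 genes of the Per-Dbp arm (36.4%; Ciart, Tef, Per1 and Bhlhe41). The D-box letters TTATGTAA and TTACGTAA and the PPAR element, a direct repeat of AGGTCA with any single base between, matched in 0 of the 36, where 1.11%, 0.126% and 0.0481% of all genes held them. The FOXO letters GTAAACA matched in Txnip and Slc5a6, with 4.05% of all genes. A match describes letters in a window and says nothing of binding there.

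Of the lipid synthesis genes, a desaturase and a regulator were higher. Scd2, which adds a double bond to saturated fatty acids (chromosome 19, 44381024 to 44381083), ran from 3.37 to 3.98 in Lean (median 3.63), 3.05 to 4.03 in DIO (median 3.72) and 4.21 to 4.64 in DIO-R (median 4.38). The restricted samples all exceeded the freely fed ones, and the rise was 1.66-fold (0.73 ± 0.10 SE, adjusted p = 0.000649), alike over DIO (0.74) and Lean (0.71). Its relative Scd1 differed by 0.19 ± 0.11 SE and did not pass (adjusted p = 0.581). Srebf1, which encodes the SREBP-1 regulator of fatty acid synthesis, was -1.51 to -0.84 in DIO-R, -1.95 to -1.24 in DIO and -2.06 to -1.58 in Lean. It rose 1.49-fold (0.58 ± 0.09 SE, adjusted p = 0.00279), with DIO-R above every Lean sample.

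Of 20 genes of fatty acid synthesis and desaturation, Scd2 and Srebf1 passed, 14 lay higher, and the median was 0.11. The median of this list was 0.20 against DIO and 0.04 against Lean, and the DIO-R mean lay above both freely fed means in 11. Fasn, the synthase, differed by 0.20 ± 0.12 SE. Of 26 cholesterol synthesis and uptake genes 23 lay higher but 0 passed (5 had an unadjusted p under 0.05). Their median was 0.15 in the comparison, 0.39 against DIO and -0.04 against Lean, and the DIO-R mean lay between the freely fed means in 13 of them. Npc1, which exports cholesterol from lysosomes, was lower against Lean alone (-0.36, adjusted p = 0.0425).

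**Figure D4:**
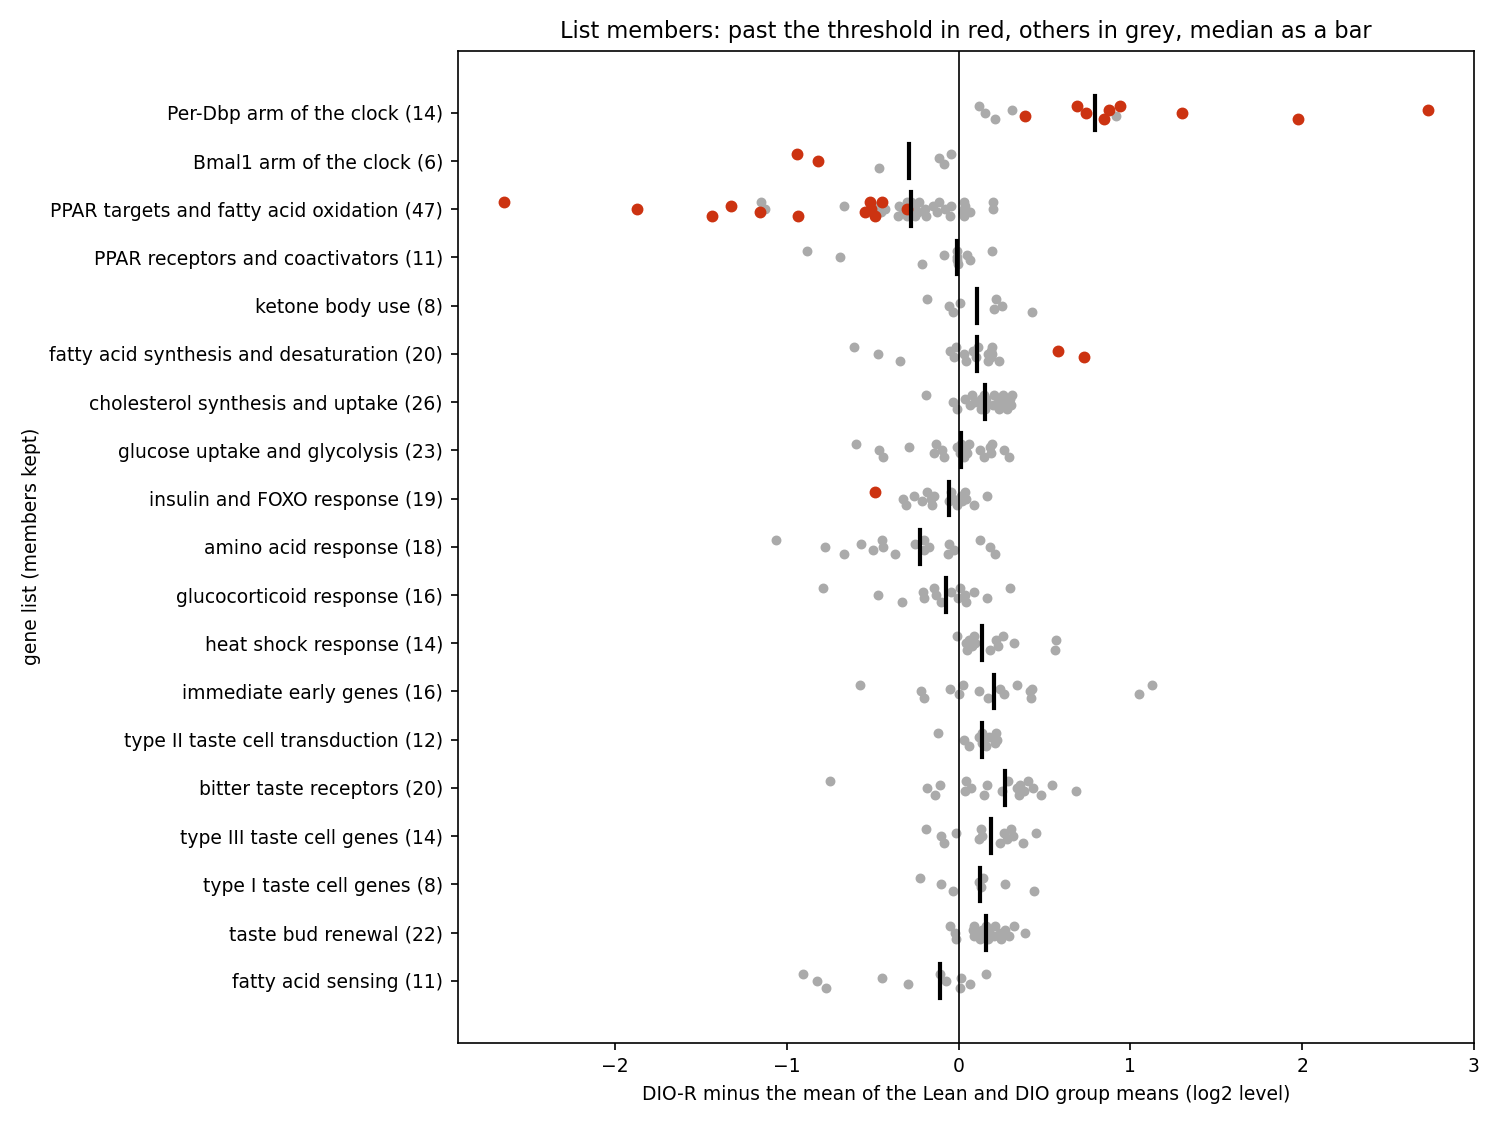
Differences of DIO-R from both freely fed groups (log2) for the members of 19 gene lists, with members past the threshold in red and the median of each list as a bar. Red points fall in 5 lists: the Per-Dbp arm to the right of 0 (median 0.79), the Bmal1 arm (-0.29), the PPAR list (-0.28) and Txnip in the insulin and FOXO list to the left, and Scd2 and Srebf1 in fatty acid synthesis to the right.

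Further genes outside these groups passed. Hivep2, a zinc finger transcription factor (chromosome 10, 13870069 to 13870128), ran from -1.09 to -0.56 in Lean, -0.96 to -0.70 in DIO and -0.57 to -0.13 in DIO-R, with 7 of 8 restricted samples above all others. It was 1.35-fold higher (0.43 ± 0.07 SE, adjusted p = 0.00273), by 0.44 over Lean and 0.42 over DIO, and lost its call with the muscle and adipocyte covariates (0.0742). Camkk1, a kinase that switches on calcium/calmodulin-dependent kinases and AMPK, was 1.36-fold higher (adjusted p = 0.0203). Camkv, a kinase-like protein without known activity, was 1.90-fold higher (adjusted p = 0.0273), by 1.31 over Lean and 0.54 over DIO. Rdh10, which makes retinaldehyde, rose 1.35-fold (adjusted p = 0.0330), the coiled-coil gene Ccdc116 1.60-fold (0.0346) and Slc5a6, a transporter of biotin and pantothenate, 1.24-fold (0.0466).

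These last 5 calls were less steady. Camkk1 lost its call without DIO-R 4, 5, 6 or 8 (adjusted p up to 0.0701) and in the authors' value table (0.07004). Camkv lost its call without Lean 6 or 7, DIO 5 or DIO-R 2, 5, 6, 8 or 10 (up to 0.0953), with the slide block (0.0514) and with the freely fed samples as 1 group (0.152). Rdh10 and Ccdc116 each kept theirs in 9 of the 23 fits that leave out 1 sample (adjusted p up to 0.105 and 0.122), and Slc5a6 in 3 (up to 0.159). All 5 lost their calls with the erythrocyte covariate (0.157 to 0.227) and with the muscle and adipocyte covariates (0.107 to 0.335), and the last 3 with the slide block (0.0524 to 0.0988). With normexp background correction Ccdc116 differed by 0.39 instead of 0.68. Omission of DIO 1 and DIO 6 ended the calls of Rdh10 (0.0895), Ccdc116 (0.111) and Slc5a6 (0.113). Rdh10 also lost its call with array weights (0.0747) and Ccdc116 with the mean of probes (0.221). That of Slc5a6 ended with normexp background correction (0.0768), in the authors' value table (0.07004) and with no filter on dim probes (0.0774).

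Of the remaining lower genes, C2cd4b, a calcium-binding domain gene, was 1.45-fold lower (adjusted p = 0.0150), by -0.71 from Lean and -0.37 from DIO. Tcf23, a helix-loop-helix factor, was 2.55-fold lower (-1.35 ± 0.26 SE, adjusted p = 0.0248), by -1.90 from Lean and -0.80 from DIO. Hsdl2, a dehydrogenase-like protein, was 1.35-fold lower (adjusted p = 0.0273), Tigd2 1.23-fold (0.0283), Arhgap20 1.60-fold (0.0346), and the RNA D430040L24Rik 1.76-fold (0.0387). The predicted gene Gm17773 was 2.12-fold lower (adjusted p = 0.0150). Terb1, which ties telomeres to the nuclear envelope in meiosis, exceeded background clearly on 0 of 8 DIO-R, 5 of 8 DIO and 2 of 7 Lean arrays; the fall was at least 1.35-fold from DIO, set against the lowest signal well above background on each DIO-R array, and has no bound from Lean.

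The Terb1 difference of -1.05 (adjusted p = 0.0150) became -0.16 with normexp background correction (0.549). With that correction the differences and adjusted p-values were -0.34 and 0.0768 for C2cd4b, -0.67 and 0.0715 for Tcf23, -0.29 and 0.359 for Gm17773, and -0.41 and 0.0651 for D430040L24Rik. In the authors' value table they were -0.86 for Tcf23, -0.37 for Gm17773 and -0.48 for D430040L24Rik, the last with an adjusted p of 0.133. C2cd4b lost its call without DIO-R 10 (0.0515), Gm17773 without DIO-R 4 or 5 (0.0525 and 0.0529) and Tcf23 without DIO-R 2, 5, 8 or 10 (up to 0.0771). Hsdl2 kept its call in 15 of the 23 fits that leave out 1 sample (adjusted p up to 0.0924), Tigd2 in 14 (0.104), Arhgap20 in 10 (0.117) and D430040L24Rik in 8 (0.130). All 8 genes lost their calls with the muscle and adipocyte covariates (0.0889 to 0.307), and all but Terb1 with the erythrocyte covariate (0.0678 to 0.225). Omission of DIO 1 and DIO 6 ended the calls of Gm17773, Tcf23, Hsdl2, Tigd2, Arhgap20 and D430040L24Rik (0.0509 to 0.121). With the freely fed samples as 1 group C2cd4b (0.0704) and Tcf23 (0.148) did not pass, and with the slide block Tigd2 (0.0524) and Arhgap20 (0.0665) did not. Tigd2 also lost its call with normexp background correction (0.0927) and in the authors' value table (0.0755), and D430040L24Rik under quantile normalization (0.108) and with no filter on dim probes (0.0515).

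Signalling and stress lists held no gene past the threshold, though some leaned to a side. Of 18 amino acid response genes, targets of the factor Atf4, 15 lay lower, the median was -0.23, and 12 had an unadjusted p under 0.05. Atf5 came nearest, at 4.59 to 5.24 in DIO-R against 5.02 to 5.77 in Lean and 4.85 to 5.96 in DIO (-0.57 ± 0.13 SE, adjusted p = 0.0912). Of 14 heat shock genes 13 lay higher with a median of 0.14 (6 had an unadjusted p under 0.05), led by Hspa1a (0.57 ± 0.13 SE, adjusted p = 0.105). Of 16 immediate early genes 12 lay higher with a median of 0.21 (7 had an unadjusted p under 0.05), with Egr1 at 1.05 ± 0.24 SE (adjusted p = 0.105) and Fos at 1.13 ± 0.28 SE (adjusted p = 0.164). Glucocorticoid targets had a median of -0.07 over 16 genes (3 had an unadjusted p under 0.05); Fkbp5 differed by -0.47 and Tsc22d3 by -0.20.

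The taste lists likewise held no gene past the threshold. Median differences were 0.14 for 12 type II transduction genes (1 had an unadjusted p under 0.05), 0.27 for 20 bitter receptors (1), 0.19 for 14 type III genes (0), 0.12 for 8 type I genes (0) and 0.16 for 22 genes of taste bud renewal (4). With the muscle and adipocyte levels as covariates those of the type II, bitter and type III lists turned to -0.19, -0.06 and -0.06. DIO 1 and DIO 6 had the lowest mean log2 levels of type II genes in the DIO group (-1.31 and -0.69, against -0.09 to 0.44 in the other DIO samples). Without DIO 1 the medians were 0.03 for type II, 0.18 for bitter receptors, 0.11 for type III and 0.10 for renewal. Gnat3, the taste G protein, ran from 0.66 to 1.12 in Lean, -1.59 to 1.39 in DIO and 0.72 to 1.24 in DIO-R (0.22 ± 0.26 SE, adjusted p = 0.776). Trpm5, its downstream channel, showed the same low DIO sample (0.21 ± 0.25 SE, adjusted p = 0.783). The sweet receptor subunit Tas1r2 differed by 0.13 ± 0.28 SE and the sour cell channel gene Pkd2l1 by 0.45 ± 0.27 SE. Of 11 fatty acid sensing genes 0 passed (4 had an unadjusted p under 0.05): Cd36, a fatty acid receptor of taste cells that fat and muscle also express, differed by -0.83 ± 0.31 SE (adjusted p = 0.434) and Ffar4 by -0.08 ± 0.15 SE (adjusted p = 0.880).

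By group means, some lists set DIO-R apart from DIO and from Lean in opposite directions, and so lay between them. The interferon response list had a median of 0.02 in the comparison, made of -0.38 against DIO and 0.34 against Lean, and the DIO-R mean lay between the others in 28 of 35 genes. The DIO means of this list include a few high samples, with DIO 3 at a mean log2 level of 1.13 and DIO 10 at 0.35. By the median sample its level was -0.57 in DIO-R, -0.66 in DIO and -0.92 in Lean, so DIO-R was then not between them. MHC class II genes gave -0.16, made of -0.43 and 0.10, with 9 of 11 between. None of these genes passed, nor had any an unadjusted p under 0.05. By contrast 8 of 47 PPAR list members and 0 of 14 genes of the Per-Dbp arm lay between the freely fed means, against 32% of all genes; these shares describe lists chosen with earlier results of these data known. Against a single freely fed group, 17 genes passed versus DIO (0.0603% of all) and 36 versus Lean (0.128%). An unadjusted p under 0.05 was found for 9.73% and 8.94% of all genes, and for 8.96% between DIO and Lean, where 1 gene passed (0.00354%). That gene, the myeloid marker Aif1, had its DIO-R mean between the others (0.35 in Lean, 1.30 in DIO and 0.88 in DIO-R). Those that passed against DIO or Lean but not in the comparison with both were Bdh1, and the chemokine genes Ccl3 (1.00 over Lean, adjusted p = 0.0417) and Cxcl5 (-1.11, 0.0338), Ubxn2b (0.36, 0.0146), Zfat (0.37, 0.0325) and Npc1.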

How the data were processed

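The scanner intensity of each spot was deposited by the authors and came, per the file headers, from Feature Extraction 10.10.1.1 (Agilent), with background subtracted within an array; probe positions are on mouse build mm9, per the file headers. Exon and untranslated region boundaries of that build were not used here. The deposited value table of the authors is on a log2 scale with array medians of 7.63 to 7.64; its exact normalization is not given in the sources used here, and it served as an alternative.

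Log2 intensity minus the 75th percentile of the array, control spots left out, was analysed, without outlier spots. Each gene was read from its probe with the highest mean and kept if well above background on 7 of 23 arrays; near-identical gene copies can share signal. Between 66.9% and 78.4% of probes were well above background on an array, and 0 spots were saturated. The number of arrays limits the precision. Symbols follow the array's design, updated through RefSeq (GRCm38.p6) for 17300 matched genes. Array correlations lay between 0.960 and 0.991, and each array was counted as 1 sample. These correlations cannot tell whether any arrays came from the same animal. Each of the 3 slides (8, 8 and 7 arrays) holds all groups.

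Group means were fitted with limma 3.58.1 in R 4.3.3 (two-sided, Benjamini-Hochberg over all genes kept, threshold 0.05). In the stricter test a gene's p is the larger of those against Lean and DIO where both differences have the same sign, and 1 otherwise. Gene lists (36) are described by counts and medians, with no set test. Members and lists were chosen with earlier results of these data known. The naming rule took the 15 smallest p-values in each direction, genes of the stricter test, leading list members and a panel of 53 genes; further genes among the 48 were added after their values were seen, and 1 of the 48 is not reported here by name or value. The fit was tested on simulated data. Figures were drawn with matplotlib 3.10.9.

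Alternatives were quantile normalization, normexp background correction with an offset of 50, the value table, slide or replicate number as a block, other probe filters, the mean of probes, trend and robust eBayes, array weights, freely fed samples as 1 group, marker list levels as covariates and leaving out each sample. Omission of DIO 1 and DIO 6 together was chosen after seeing the data.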

Additional observations from a re-analysis of the deposited data

Results flagged for a closer look

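In 4 of 141 groups of gene values and 7 of 108 groups of list values, the highest or lowest sample stood far from the others of its group; chance alone flags about 1 group in 20. Ciart had 1 DIO sample, DIO 1, at -6.40, where the next lowest was -4.63. Each within its own group, Nfil3 was highest at 2.71 in DIO 6, Nr1d1 at 0.0781 in Lean 9 and Acot2 at -0.26 in Lean 7. The mean log2 level of type III taste cell genes was lowest at -1.36, and of type I genes at 1.096, both in DIO 1. DIO-R 6 had the lowest level of MHC class II genes (-0.78), of macrophage and dendritic cell markers (0.0385) and of Schwann cell and nerve markers (-0.10) in its group. The von Ebner gland list was lowest within DIO-R at 0.36 in DIO-R 5, and the fibroblast and matrix list within DIO at 2.20 in DIO 3.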

How the results depend on the processing

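The 48 genes of the comparison with both freely fed groups numbered 43 to 56 under 9 alternatives and 72 with keratinocyte and fibroblast covariates, but 15 with the replicate number as a block, 22 with the erythrocyte covariate, 23 with the skeletal muscle and adipocyte covariates, 77 with array weights and 38 without DIO 1 and DIO 6, an omission chosen after seeing the data. Leaving out each sample gave 31 to 65. The 13 genes of the stricter test numbered 4 with the replicate block, 8 with no filter on dim probes, 3 with the erythrocyte covariate, 8 with the muscle and adipocyte covariates, 7 without DIO 1 and DIO 6, and 5 to 14 when each sample was left out. The causes were not tested. A block or covariate takes degrees of freedom from the same 23 arrays, and some covariates also changed the differences. The median difference of the PPAR list was -0.28 in the main fit. It was -0.08 with the muscle and adipocyte covariates, -0.20 with the erythrocyte covariate and -0.29 with the keratinocyte and fibroblast covariates. Over 18 same-numbered pairs of samples the deviations from the group means correlated from -0.37 to 0.33 (median -0.03), above 0.1 in 4. Over the 158 other pairs between groups they correlated from -0.32 to 0.45 (median -0.015), above 0.1 in 49. No pairing by replicate number was seen in these correlations, which cannot exclude one. With the replicate block 4 of 14 genes of the Per-Dbp arm and 6 of 47 PPAR list members passed. Of the 48, 12 passed in all 15 alternatives and all 23 fits that leave out 1 sample. No difference among the 48 changed its sign in any of these. Dim probes (Ciart, Terb1, Gm17773, Tcf23) give sizes that depend on the background correction.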
